A study of Homo sapiens with 6 samples.

Results

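The MAF translocation program, as followed here, is a set of 8 genes tied to the MAF translocation of myeloma. They are the transcription factor MAF itself, its neighbour WWOX, and CCND2, ITGB7, NUAK1, DEPTOR, RND3 and SMARCA1. They were chosen by gene symbol from the 60671 genes of the table, each Ensembl identifier being kept once, and all 8 were found. RNA had been sequenced from 3 libraries of a CD38 knockout clone (CD38 KO) and 3 of its wild-type parent (WT), to describe the knockout phenotype. Both are MM.1S, a human multiple myeloma line labelled as B lymphoblast, and both carry GFP and the click beetle red luciferase. CD38 was disrupted with CRISPR/Cas9 in a single clone, which was expanded in bulk, so an effect of losing CD38 and a property of that clone cannot be told apart. Live cells were sorted on CD38 surface protein before RNA extraction, negative cells from the clone and positive cells from WT. The replicates of a line were prepared from its sorted population, so the p-values measure the spread between those preparations.

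MAF is a basic leucine zipper factor of the large Maf family that binds DNA as a dimer at Maf recognition elements. In myelomas with this translocation, which MM.1S is known to carry, immunoglobulin heavy chain enhancers drive MAF, and the breakpoints lie in or near the large neighbouring gene WWOX. Cyclin D2 and integrin beta 7 are the best known targets of MAF in plasma cells, and through them the factor is linked to proliferation and to adhesion in the bone marrow.

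Promoter windows from RefSeq (GRCh38.p14) ran from 250 bases before to 50 bases after a start given there. They were available for 6 of the 8 genes, WWOX, NUAK1 and SMARCA1 among them. These starts need not be those of GENCODE 29 (build GRCh38), which gives the gene positions below. The upstream letters of RND3 and NUAK1 lie wholly, and those of WWOX mostly, inside the gene as placed there. RND3 starts there at base 150539011, far upstream of the letters shown. No window was available for CCND2 or DEPTOR, so their promoters were not searched. The letters upstream of the start are shown for MAF, for the highest expressed member ITGB7 and for RND3, the member with the largest fall, leaving out bases inside annotated exons. Capitals mark TGCTGA or its reverse complement TCAGCA, one arm of the Maf recognition element.
MAF, chr16:79600738-79600987, minus strand: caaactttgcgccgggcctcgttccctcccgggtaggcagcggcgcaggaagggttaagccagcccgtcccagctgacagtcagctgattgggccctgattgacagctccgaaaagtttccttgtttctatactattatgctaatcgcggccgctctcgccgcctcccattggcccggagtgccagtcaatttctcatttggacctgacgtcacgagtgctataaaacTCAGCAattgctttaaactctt
ITGB7, chr12:53207308-53207501, minus strand: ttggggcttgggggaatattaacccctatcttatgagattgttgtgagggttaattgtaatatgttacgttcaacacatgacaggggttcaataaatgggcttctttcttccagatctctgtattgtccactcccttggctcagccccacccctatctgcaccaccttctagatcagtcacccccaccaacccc
RND3, chr2:150487730-150487945, minus strand: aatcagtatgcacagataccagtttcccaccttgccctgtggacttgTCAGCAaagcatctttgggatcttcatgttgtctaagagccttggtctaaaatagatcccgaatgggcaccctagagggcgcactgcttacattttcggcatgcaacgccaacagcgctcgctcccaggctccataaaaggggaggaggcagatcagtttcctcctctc
The arm stood once in the MAF window, at bases -22 to -17 from the start, and once in the RND3 window shown, at bases -203 to -198, which a second, overlapping RND3 window also covers. It was not among the letters of the WWOX, ITGB7, NUAK1 and SMARCA1 windows. Over all 35116 windows, 17.3% held the arm on either strand. The full palindromic Maf recognition element, both arms around a single base, was in 0 of the 35116 windows. The AP-1 site TGANTCA, which that palindrome contains, was in 7.71% of all windows and in none of the windows of the 6 genes. These matches are descriptions of the letters and not binding sites.

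Total counts ranged from 61515519 to 72335496 per library. CPM, the unit used below, is the count scaled to a common library size with TMM factors. CD38 was at 0.972 ± 0.322 CPM in CD38 KO and 40.6 ± 1.90 CPM in WT (SD, n = 3 each). Of 6 defining plasma cell markers, 5 were higher in CD38 KO at an edgeR adjusted p under 0.05, as were 22.8% of all tested genes. SDC1 was not past that threshold. The log2 fold changes of the 5 ran from 0.18 for IRF4 to 1.05 for JCHAIN. The list summed to 7476 to 7560 CPM in CD38 KO libraries and 5201 to 5234 CPM in WT libraries. The list of 8 markers of other cell types summed to 162 to 169 CPM in CD38 KO and 54.6 to 56.9 CPM in WT, most of it PECAM1, which plasma cells also express. HBB, a globin gene of that list, was at 31.1 ± 1.63 CPM in CD38 KO and 23.3 ± 0.268 CPM in WT (SD, n = 3 each; log2 fold change 0.42, edgeR adjusted p = 3.01e-05). Of these 8 markers 4 were tested, and 3 of them were higher in CD38 KO and none lower. PECAM1 averaged 128 ± 3.29 CPM in CD38 KO and 30.7 ± 0.932 CPM in WT (SD, n = 3 each; log2 fold change 2.06, edgeR adjusted p = 5.51e-18). COL1A1 was not past the threshold (log2 fold change -0.77, edgeR adjusted p = 0.424). CD3D held at most 1 count in any library, LYZ and CD14 at most 4, and EPCAM at most 30. CD3E was at 4.83 ± 0.359 CPM in CD38 KO and 0.979 ± 0.0760 CPM in WT (SD, n = 3 each). The part of any of these markers in the results below was not tested.

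Of the 8 genes, 7 had enough counts to be tested, 6 of them fell, DEPTOR was not past the threshold and none rose. Across all 20120 tested genes 44.4% were called in either direction, 21.6% lower and 22.8% higher, at an adjusted p under 0.05 by edgeR's quasi-likelihood test with Benjamini-Hochberg adjustment over all tested genes. The median log2 fold change of the 7 tested members was -0.50, beside 0.000212 over all tested genes. The falls ranged from 22.5% for ITGB7 to 70.2% for RND3. NUAK1 and RND3 fell by more than 2-fold, as did 5.26% of tested genes. In each of the 6 genes that fell, every CD38 KO library lay below every WT library, which held for 25.6% of tested genes, while 26.9% had every CD38 KO library above every WT library.

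**Figure D1:**
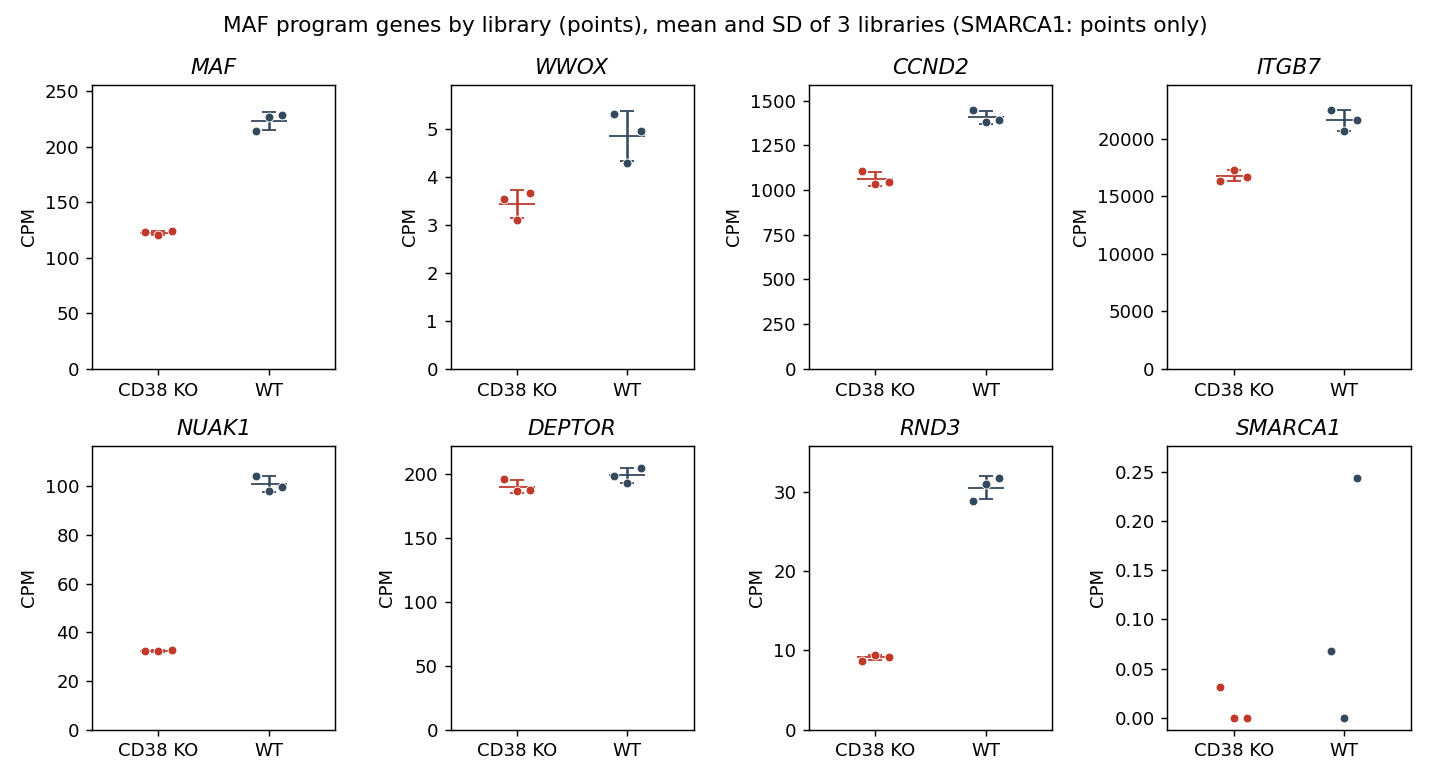
CPM (linear axes, each with its own scale) of the 8 genes in every library, CD38 KO left and WT right; points are libraries, the long bar is the mean and the whiskers the SD of 3 libraries, left out for SMARCA1. The CD38 KO points lie below the WT points for MAF, WWOX, CCND2, ITGB7, NUAK1 and RND3, and the groups overlap for DEPTOR and SMARCA1.

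MAF (ENSG00000178573; chromosome 16, 79585843 to 79600714, minus strand, in GENCODE 29, build GRCh38) stood at 123, 120.2 and 124 CPM in the CD38 KO libraries and at 214, 226 and 229 CPM in the WT libraries. The CD38 KO libraries were close together and all lay well below the lowest WT library. MAF averaged 122 ± 2.003 CPM in CD38 KO and 223 ± 8.08 CPM in WT (SD, n = 3 each), 45.1% lower in CD38 KO (log2 fold change -0.86 ± 0.0418, SE; edgeR adjusted p = 4.43e-13). Of all tested genes, 7.74% had a log2 fold change this low or lower. The same share was 2.26% for RND3, 2.54% for NUAK1, 16.4% for WWOX, 20.1% for CCND2, 22.1% for ITGB7 and 44.2% for DEPTOR. By mean CPM over all genes MAF was at rank 1816 in CD38 KO, against rank 782 in WT.

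WWOX (ENSG00000186153; chromosome 16, 78099413 to 79212667, plus strand), an oxidoreductase with WW domains that is described as a tumour suppressor, was expressed at a low level. It stood at 3.55, 3.11 and 3.66 CPM in CD38 KO and at 5.31, 4.29 and 4.96 CPM in WT. These are 227, 185 and 227 CD38 KO counts, against 393, 284 and 326 WT counts, so the groups did not overlap, but WT replicate 2 came near the CD38 KO values. Its log2 fold change of -0.50 had an SE of 0.147 (edgeR adjusted p = 0.00887). That call was lost without WT replicate 1 (log2 fold change -0.43, edgeR adjusted p = 0.0569), and the adjusted p ranged from 0.00282 to 0.0569 over the alternatives. Several noncoding genes and pseudogenes lie inside WWOX in GENCODE 29, among them WWOX-AS1 on the opposite strand, with 2 counts in 1 CD38 KO library and 4 in 1 WT library.

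Most tested genes around MAF did not fall. Of the 20 nearest tested genes, 10 on each side, 7 rose and 3 fell (median log2 fold change 0.0849), and none was as low as MAF. Neighbours here follow the reference order, which a translocated copy of MAF need not keep. LINC01229, a long noncoding RNA next to MAF, rose to 15.7 ± 0.834 CPM in CD38 KO, against 10.7 ± 0.781 CPM in WT (SD, n = 3 each; log2 fold change 0.56, edgeR adjusted p = 2.86e-05). MAFTRR, a noncoding RNA described in T cells as a repressor of MAF transcription, stood at 3.33, 1.92 and 2.31 CPM in CD38 KO and 1.34, 1.24 and 1.43 CPM in WT. Its CD38 KO libraries were all above its WT libraries and more scattered (log2 fold change 0.92 ± 0.225 (SE), edgeR adjusted p = 0.00206). Of the 5 nearest tested genes on each side, SYCE1L rose as well (log2 fold change 0.81, edgeR adjusted p = 0.00125), MON1B rose (0.20, edgeR adjusted p = 0.0126) and WWOX was the only one to fall. The call of MON1B was lost with library size alone (edgeR adjusted p = 0.122), as it was without CD38 KO replicate 2 (0.0510) and without WT replicate 2 (0.0909). NUDT7, CDYL2, AC079414.3, AC009159.3 and AC105411.1 were not past the threshold, although AC105411.1 passed it with library size alone (log2 fold change -0.76, edgeR adjusted p = 0.0340). On chromosome 16 as a whole, 137 of 907 other tested genes fell (15.1%) and 235 rose (25.9%).

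CCND2 (ENSG00000118971; chromosome 12, 4273772 to 4305350, plus strand) encodes cyclin D2, which pairs with CDK4 or CDK6 to phosphorylate RB1 at entry into the cell cycle. It stood at 1109, 1032 and 1044 CPM in CD38 KO and at 1449, 1381 and 1393 CPM in WT. All 3 CD38 KO libraries were below all 3 WT libraries, and the gap between the groups was wider than the spread within either. The level averaged 1062 ± 41.4 CPM in CD38 KO and 1408 ± 36.1 CPM in WT (SD, n = 3 each; log2 fold change -0.41 ± 0.0368, SE; edgeR adjusted p = 9.62e-09). The antisense gene CCND2-AS1 overlaps it and was at 1.27 CPM in CD38 KO and 1.31 CPM in WT.

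Cyclin D2 remained the main D-type cyclin RNA. Its share of the reads of CCND1, CCND2 and CCND3 was 93.4%, 92.8% and 93.1% in the CD38 KO libraries and 92.7%, 92.9% and 92.8% in the WT libraries. The groups overlapped (two-sided exact permutation p = 0.2, where 3 against 3 cannot go below 0.1). CCND1 fell as well, to 8.06 ± 0.709 CPM in CD38 KO, against 29.5 ± 0.789 CPM in WT (SD, n = 3 each; log2 fold change -1.87, edgeR adjusted p = 1.34e-13). CCND3 stood at 70.8 ± 2.17 CPM in CD38 KO and 79.8 ± 3.97 CPM in WT (SD, n = 3 each; log2 fold change -0.17, edgeR adjusted p = 0.00809), and its call was lost without CD38 KO replicate 3 (edgeR adjusted p = 0.0610) and without WT replicate 1 (0.0507).

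The kinase partners of cyclin D2 moved in opposite directions. CDK4 averaged 82.1 ± 5.96 CPM in CD38 KO and 143 ± 1.72 CPM in WT (SD, n = 3 each; log2 fold change -0.80, edgeR adjusted p = 2.34e-11). CDK6 averaged 86.5 ± 5.30 CPM in CD38 KO and 45.6 ± 3.07 CPM in WT (SD, n = 3 each; log2 fold change 0.92, edgeR adjusted p = 4.83e-11). RB1, the substrate of both kinases, rose to 93.1 ± 10.8 CPM in CD38 KO, against 31.6 ± 0.269 CPM in WT (SD, n = 3 each; log2 fold change 1.56, edgeR adjusted p = 3.41e-12), and the CDK4 and CDK6 inhibitor CDKN2D rose (log2 fold change 1.35, edgeR adjusted p = 8.58e-12). The inhibitor CDKN2C had 0 counts in every CD38 KO library and 1 count over the WT libraries, where a count of 0 allows up to 3 counts, on average 0.0486 CPM in CD38 KO. CDKN2A and CDKN2B also had 0 counts in every CD38 KO library, and 8 and 3 counts over the WT libraries. Of 13 genes listed as D-type cyclins other than CCND2, their kinases, pocket proteins and inhibitors, 10 were tested. Among them 4 rose and 5 fell (median log2 fold change -0.0391). Without CD38 KO replicate 3 the number that fell was 3.

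ITGB7 (ENSG00000139626; chromosome 12, 53191318 to 53207307, minus strand) encodes integrin beta 7, which pairs with the alpha 4 chain to bind MAdCAM-1 and VCAM-1 and with the alpha E chain to bind E-cadherin. In the CD38 KO libraries it ranked 3, 2 and 2 by count, with 1042651, 1027302 and 1033474 counts, which were 1.59%, 1.67% and 1.62% of all counts. In every WT library it ranked 1, with 1665172, 1369797 and 1421057 counts, which were 2.30%, 2.15% and 2.21% of all counts. As CPM it stood at 16309, 17263 and 16686 in CD38 KO and at 22497, 20675 and 21636 in WT, and the groups did not overlap. Its log2 fold change of -0.37 had an SE of 0.0342 (edgeR adjusted p = 1.62e-08). ZNF740 overlaps ITGB7 on the opposite strand and moved in the same direction, at 128 CPM in CD38 KO and 162 CPM in WT. No source used here states the strand setting of the counts, so overlapping reads of the pair cannot be told apart. The ZNF740 level was small beside the mean for ITGB7, 16753 CPM in CD38 KO and 21603 CPM in WT. Its part in the ITGB7 counts was not tested.

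The integrin partners did not follow one direction. ITGA4, the alpha 4 chain, was lower, at 165 ± 11.9 CPM in CD38 KO and 189 ± 7.09 CPM in WT (SD, n = 3 each; log2 fold change -0.20, edgeR adjusted p = 0.00267). ITGAE, the alpha E chain, rose to 51.7 ± 3.92 CPM in CD38 KO, against 33.3 ± 1.30 CPM in WT (SD, n = 3 each; log2 fold change 0.64, edgeR adjusted p = 3.97e-08). ITGB1, the beta 1 chain that competes for alpha 4, had a log2 fold change of 0.11 (edgeR adjusted p = 0.0271). Its call was lost with library size alone (edgeR adjusted p = 0.579) and with no filter on low counts (0.141), and also without CD38 KO replicate 3 (0.0667), WT replicate 1 (0.0899) or WT replicate 2 (0.09996). ITGB7 made up 98.7%, 98.7% and 98.7% of the reads of the pair ITGB7 and ITGB1 in CD38 KO and 99.1%, 99.0% and 99.0% in WT (exact permutation test, two-sided, p = 0.1, its lower limit with 3 against 3). Among the ligands, FN1 (fibronectin) rose to 36.5 ± 3.29 CPM in CD38 KO, against 19.96 ± 1.11 CPM in WT (SD, n = 3 each; log2 fold change 0.87, edgeR adjusted p = 5.21e-09). MADCAM1 was near 1 CPM or lower in every library (log2 fold change 0.97, edgeR adjusted p = 0.0133, and 0.0710 without WT replicate 3), and VCAM1 and CDH1 had too few counts to be tested.

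**Figure D2:**
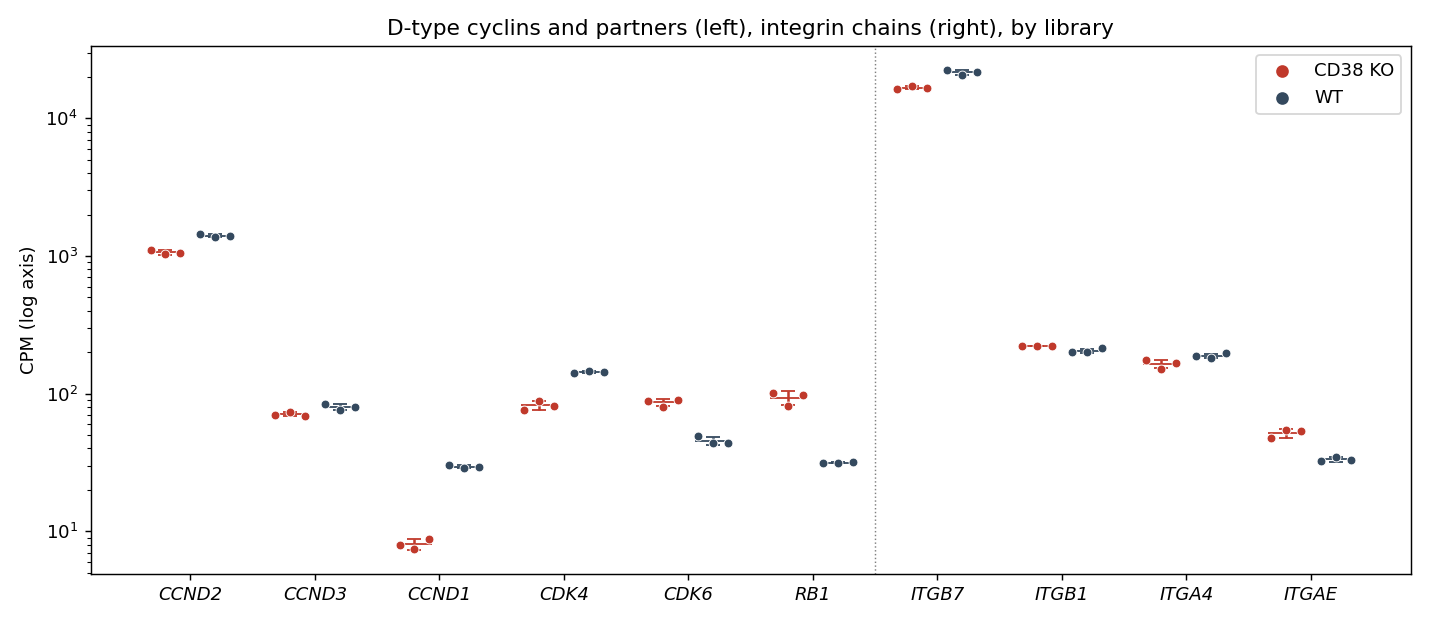
CPM on a log axis of the D-type cyclins, CDK4, CDK6 and RB1 (left of the dotted line) and of integrin chains (right), with CD38 KO left of WT for each gene; points are libraries, the long bar is the mean and the whiskers the SD of 3 libraries. CCND2 lies near 1062 CPM in CD38 KO and 1408 CPM in WT, above CCND3 and CCND1, while CDK4 and CDK6 moved in opposite directions.

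NUAK1 (ENSG00000074590; chromosome 12, 106063340 to 106140033, minus strand), a kinase of the AMPK-related family also called ARK5, stood at 32.3, 32.1 and 32.8 CPM in CD38 KO and at 104, 98.0 and 99.7 CPM in WT. The CD38 KO libraries lay within 1 CPM of each other and far below WT. The level averaged 32.4 ± 0.341 CPM in CD38 KO and 101 ± 3.30 CPM in WT (SD, n = 3 each), 3.11-fold lower in CD38 KO (log2 fold change -1.64 ± 0.0505, SE; edgeR adjusted p = 3.14e-16). AC011595.1, which overlaps NUAK1 on the opposite strand, fell too (0.428 CPM in CD38 KO and 1.82 CPM in WT). Overlapping reads of AC011595.1 and NUAK1 cannot be told apart without the strand setting, though the AC011595.1 level was small beside that of NUAK1 in both groups.

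The paralog NUAK2 was not past the threshold, at 45.9 ± 2.90 CPM in CD38 KO and 48.4 ± 1.81 CPM in WT (SD, n = 3 each; log2 fold change -0.0769, edgeR adjusted p = 0.314). PPP1R12A, a myosin phosphatase subunit that NUAK1 phosphorylates, fell (log2 fold change -0.61, edgeR adjusted p = 2.58e-10). CAB39, a subunit of the LKB1 complex that activates NUAK kinases, rose (log2 fold change 0.35, edgeR adjusted p = 1.97e-06), while its kinase STK11 had a log2 fold change of 0.0567 (edgeR adjusted p = 0.352). Of the 7 genes of this list, 2 rose and 1 fell, and without CD38 KO replicate 1 the number that rose was 1. With library size alone 1 rose and 2 fell.

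RND3 (ENSG00000115963; chromosome 2, 150468195 to 150539011, minus strand), an atypical small G protein that lacks GTPase activity and opposes RhoA and ROCK1 signalling, stood at 8.73, 9.39 and 9.22 CPM in CD38 KO and at 28.9, 31.0 and 31.8 CPM in WT. It had the largest fall of the 7 tested members, 3.35-fold lower in CD38 KO, and 2.26% of tested genes were as low or lower. Its log2 fold change of -1.74 had an SE of 0.0791 (edgeR adjusted p = 1.54e-13). The related RND1 fell as well, to 5.34 ± 0.302 CPM in CD38 KO, against 13.5 ± 0.597 CPM in WT (SD, n = 3 each; log2 fold change -1.34, edgeR adjusted p = 6.71e-10). ARHGAP5, a RhoA-inactivating protein that Rnd proteins bind, had a log2 fold change of -0.48 (edgeR adjusted p = 0.000324). Of the 7 genes of this list 4 fell and none rose (median log2 fold change -0.48), and without CD38 KO replicate 3 the number that fell was 2. RND2, a relative with 3, 11 and 9 counts in CD38 KO and 30, 16 and 25 in WT, is among the 4 (log2 fold change -1.44, edgeR adjusted p = 0.0396). Its call was lost with no filter (edgeR adjusted p = 0.0568), DESeq2 (0.0602) and the replicate block (0.0601). Leaving out CD38 KO replicate 1 or 3, or WT replicate 1 or 3, gave edgeR adjusted p of 0.150, 0.0722, 0.143 and 0.119.

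DEPTOR (ENSG00000155792; chromosome 8, 119873717 to 120050913, plus strand), an inhibitor of mTOR that is highly expressed in MAF-translocated myelomas, was the tested member whose fall did not pass the threshold. It stood at 196, 187 and 187 CPM in CD38 KO and at 198, 193 and 205 CPM in WT, and CD38 KO replicate 1 lay above WT replicate 2. Its log2 fold change of -0.0644 had an SE of 0.0407 (edgeR adjusted p = 0.218), with a 95% interval of -0.14 to 0.0154. With library size alone as the scaling the log2 fold change was -0.15 and passed the threshold (edgeR adjusted p = 0.00353). Of the other 8 tested genes of the mTOR complexes and DEPTOR turnover, the shared subunit MLST8 rose (log2 fold change 0.43, edgeR adjusted p = 1.80e-07), as did the ubiquitin ligase subunit FBXW11 (0.24, edgeR adjusted p = 5.07e-05). The mTORC2 subunit MAPKAP1 fell (log2 fold change -0.21, edgeR adjusted p = 0.000491). MTOR, RPTOR and RICTOR were not past the threshold, at log2 fold changes of 0.0766 (edgeR adjusted p = 0.246), -0.18 (0.0559) and 0.18 (0.0644). Leaving out CD38 KO replicate 1 made the number of this list that fell 2, with RPTOR past the threshold (edgeR adjusted p = 0.00749). With library size alone the number was 3, and with RLE scaling, DESeq2, no filter, the replicate block or factors from genes off chromosome 12 it was 2. Leaving out CD38 KO replicate 2 or WT replicate 1 brought RICTOR past the threshold (edgeR adjusted p = 0.0315 and 0.0167), as did the replicate block (0.0288) and the filter at 1 CPM in 3 libraries (0.0484).

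SMARCA1 (ENSG00000102038; chromosome X, 129446501 to 129523500, minus strand), an ATPase of ISWI chromatin remodelling complexes, was hardly detected. The CD38 KO libraries held 2, 0 and 0 of its counts and the WT libraries 5, 0 and 16, so WT replicate 3 held most of its reads and the groups overlapped. At these counts the gene was left out of the test, and a difference between the groups was not detectable. Its relative SMARCA5 was well expressed, at 182 ± 3.29 CPM in CD38 KO and 179 ± 7.72 CPM in WT (SD, n = 3 each; log2 fold change 0.0262, edgeR adjusted p = 0.656). Of 8 ISWI genes, 4 were lower, BAZ2A (log2 fold change -0.28, edgeR adjusted p = 1.06e-05), RBBP7 (-0.21, edgeR adjusted p = 0.000190), BAZ1B (-0.16, edgeR adjusted p = 0.00563) and RBBP4 (-0.11, edgeR adjusted p = 0.0144). RBBP4 lost its call when CD38 KO replicate 1 or CD38 KO replicate 3 was left out (edgeR adjusted p = 0.0521 and 0.0714).

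The members differed widely in level, and per length their order was the same in both groups. In CPM, DEPTOR stood above MAF in CD38 KO and below it in WT. Per kilobase of annotated exon (GENCODE 29), ITGB7 was at 3739 ± 107 CPM in CD38 KO and 4821 ± 203 CPM in WT (SD, n = 3 each). CCND2 followed at 148 ± 5.79 CPM per kilobase in CD38 KO and 197 ± 5.04 in WT, then DEPTOR at 72.5 ± 1.98 in CD38 KO and 75.8 ± 2.19 in WT. MAF itself came after DEPTOR, at 17.6 ± 0.287 CPM per kilobase in CD38 KO and 32.0 ± 1.16 in WT. NUAK1 had 4.63 ± 0.0486 CPM per kilobase in CD38 KO and 14.4 ± 0.471 in WT, RND3 2.54 ± 0.0960 in CD38 KO and 8.50 ± 0.411 in WT, and WWOX 0.704 ± 0.0601 in CD38 KO and 0.993 ± 0.107 in WT. SMARCA1 was last. The 7 tested members differed from their neighbours in this order by more than the spread between libraries, in either group.

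Set against MAF in the same library, a ratio that does not depend on library scaling, the members split. ITGB7 had 133, 144 and 134 counts per MAF count in CD38 KO and 105, 91.3 and 94.6 in WT. CCND2 had 9.02, 8.58 and 8.42 counts per MAF count in CD38 KO and 6.78, 6.10 and 6.09 in WT. DEPTOR had 1.59, 1.55 and 1.51 in CD38 KO and 0.928, 0.853 and 0.894 in WT. For these genes and for WWOX the ratio was higher in every CD38 KO library than in every WT library, so their difference between the groups was smaller than that of MAF. NUAK1 had 0.263, 0.267 and 0.264 counts per MAF count in CD38 KO and 0.488, 0.433 and 0.436 in WT. RND3 had 0.0710, 0.0781 and 0.0743 in CD38 KO and 0.135, 0.137 and 0.139 in WT, so both fell more than MAF did. The ratio to MAF was chosen after the values were seen and was not tested.

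CCND2, ITGB7 and NUAK1 all lie on chromosome 12, where 337 of 1080 other tested genes fell (31.2%) and 206 rose (19.1%). The neighbours of the 3 genes differed. Among the 20 nearest tested genes of CCND2, 7 rose and 1 fell (median log2 fold change 0.20). Among those of ITGB7, 2 rose and 8 fell, with a median of -0.52, and 12 of the 20 had a log2 fold change as low as that of ITGB7 or lower. They included SPRYD3 (log2 fold change -0.68), MFSD5 (-0.76) and AAAS (-0.99), named after their values were seen. Among those of NUAK1, 2 rose and 10 fell, with a median of -0.26, and 3 of the 20 were as low as NUAK1 or lower. Around RND3, 1 of 20 neighbours rose and 6 fell, with a median of -0.28 and none as low as RND3. Of the other tested genes of its chromosome 2, 24.8% fell and 19.4% rose. Around DEPTOR 2 of 20 rose and 5 fell, with a median of -0.0258, where 23.7% of the other tested genes of chromosome 8 fell and 19.8% rose. The part of the position on the chromosome in the falls was not tested, and the copy number of these regions was not measured here.

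**Figure D3:**
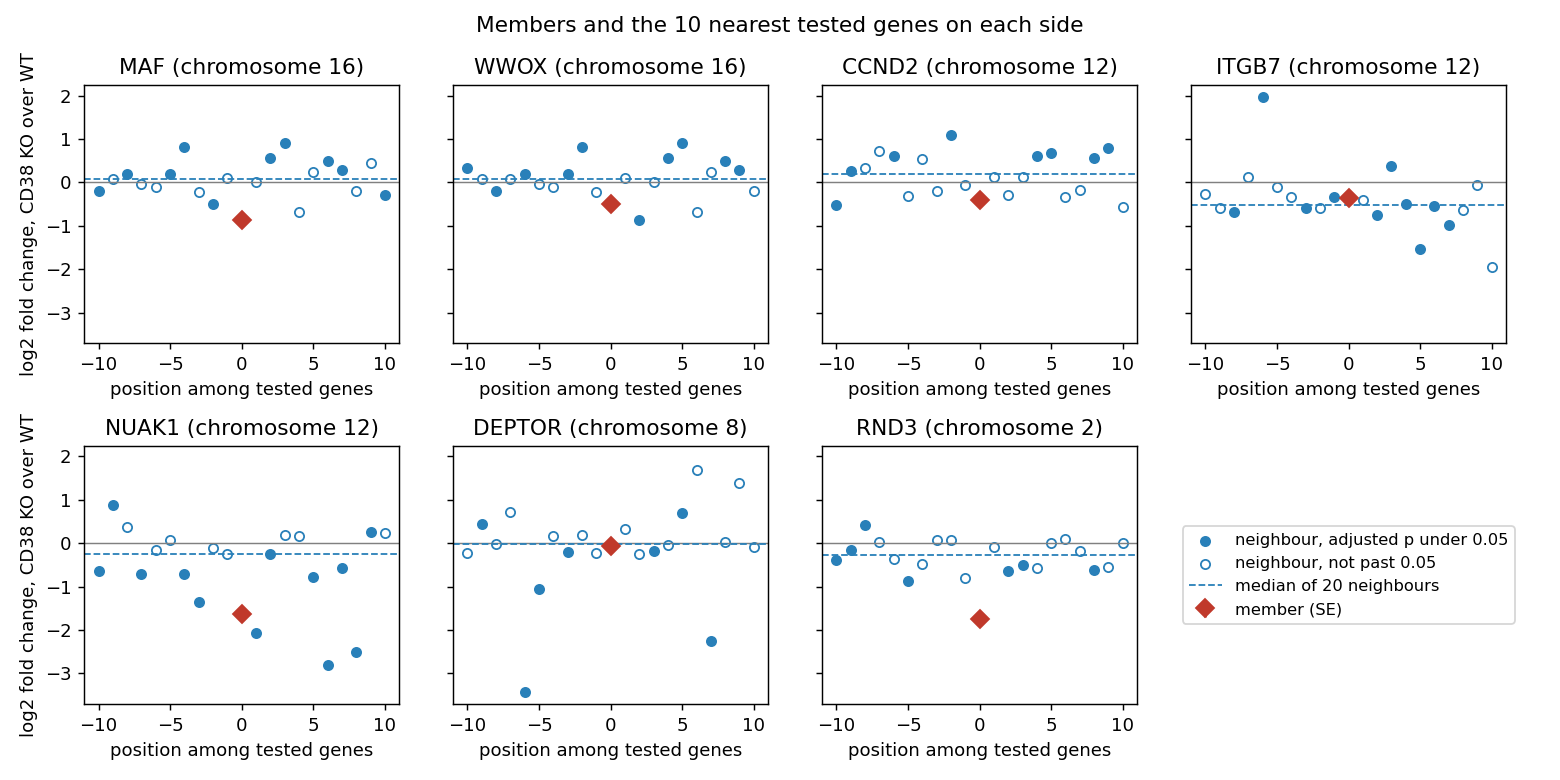
Log2 fold change (CD38 KO over WT) of 7 members (red diamonds, with SE) and of the 10 nearest tested genes on each side (blue, filled where the adjusted p is under 0.05), against the order of tested genes along the chromosome; the dashed line is the median of the 20 neighbours. MAF and RND3 lie below all 20 of their neighbours, whereas ITGB7 lies above the median of its own, which is -0.52.

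Of 89 genes on 11 lists around the members, 76 were tested, and 23 of them rose (30.3%) and 23 fell (30.3%). Over all tested genes 22.8% rose and 21.6% fell, and the counts of each list stand beside these shares. Of 8 further genes of the MAF subgroup of myeloma, 7 were tested, 2 rose and 3 fell (median log2 fold change 0.16). CCR1, a chemokine receptor known as a MAF target, rose to 344 ± 3.83 CPM in CD38 KO, against 259 ± 1.49 CPM in WT (SD, n = 3 each; log2 fold change 0.41, edgeR adjusted p = 7.99e-09). APOBEC3B, a cytidine deaminase, rose (log2 fold change 0.74, edgeR adjusted p = 1.32e-10), and AHNAK and TLR4 fell (log2 fold changes -5.84 and -1.55, edgeR adjusted p = 5.61e-21 and 3.26e-14). CX3CR1, below 1 CPM in every library, fell as well (log2 fold change -1.42, edgeR adjusted p = 0.00603). NTRK2 and APOBEC3A were not past the threshold, and SPP1 had too few counts to be tested. Of 7 genes that MAF activates in T cells, macrophages or the lens, IL10 alone was tested, and it stood at 23.6 ± 0.660 CPM in CD38 KO and 0.274 ± 0.187 CPM in WT (SD, n = 3 each; log2 fold change 6.45, edgeR adjusted p = 3.01e-11).

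Among relatives of MAF, the small Maf factor MAFF rose (log2 fold change 0.66, edgeR adjusted p = 1.62e-08). MAFA was below 1 CPM in every library. The AP-1 factors JUNB and JUN moved in opposite directions, with log2 fold changes of 0.95 and -0.47 (edgeR adjusted p = 6.02e-13 and 3.01e-09). Of 14 Maf, BACH and AP-1 factors, 3 rose and 4 fell (median log2 fold change 0.000755). Of 7 enzymes described as acting on MAF protein stability, 4 rose and none fell, among them the deubiquitinase USP7 (log2 fold change 0.25, edgeR adjusted p = 1.13e-05) and the ubiquitin ligase UBE2O (0.36, edgeR adjusted p = 5.74e-06). Without WT replicate 3 the number that rose was 2, and with library size alone 2 rose and 1 fell. Of 5 oncogenes of other primary translocations of myeloma, NSD2 rose and CCND1 and CCND3 fell. NSD2, a histone methyltransferase, had a log2 fold change of 0.56 (edgeR adjusted p = 2.87e-10), and FGFR3 was below 1 CPM in every library. Without CD38 KO replicate 3, or without WT replicate 1, the number of these that fell was 1.

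**Figure D4:**
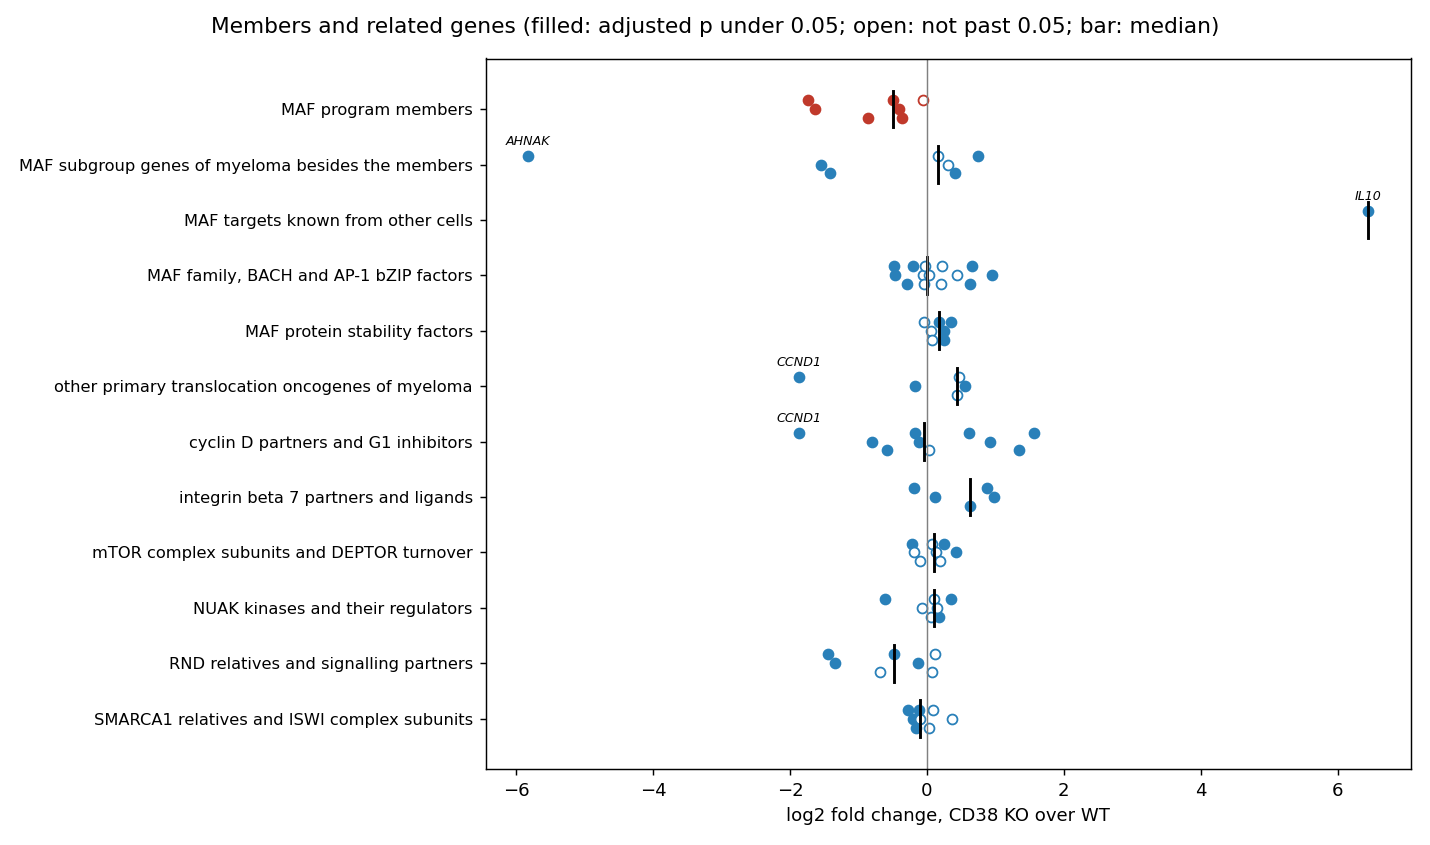
Log2 fold change (CD38 KO over WT) of the tested members (top row, red) and of the tested genes of 11 related lists (blue), 1 row per list; filled points passed an adjusted p of 0.05, open points did not, the vertical bar is the median of the row, and the height of a point within its row has no meaning. The members lie at or below 0, whereas the related lists spread to both sides; IL10 is the only tested gene of its row.

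Among 9586 protein-coding genes with a mean of at least 5 CPM, those with the profile most like MAF over the 6 libraries were NAP1L1, VPS41 and QPCT, with Euclidean distances of 0.0460, 0.0559 and 0.0751 between centred log2 CPM values. NAP1L1, a histone chaperone, averaged 64.7 ± 1.68 CPM in CD38 KO and 117 ± 6.06 CPM in WT (SD, n = 3 each). The profiles most like CCND2 were those of DCLRE1C, SRBD1 and ZNF559 (distances 0.0301, 0.0321 and 0.0336), and those most like ITGB7 were ACTB, TTI1 and TOLLIP (0.0283, 0.0433 and 0.0436). ACTB, which encodes beta-actin and often serves as an expression standard, averaged 5610 ± 126 CPM in CD38 KO and 7234 ± 327 CPM in WT (SD, n = 3 each; log2 fold change -0.37, edgeR adjusted p = 2.36e-08). All these genes were picked for their likeness over the same 6 libraries, so their falls follow from that choice.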

How the data were processed

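The authors deposited raw counts for each gene and library in a single table. STAR 2.7.9a, Partek and DESeq2 are listed in the submitters' processing notes, with no role. Build, annotation, counting program and strandedness: not given in the sources used here. Of 60871 lines, 200 repeated an identifier with the same counts and were dropped, which left 60671 genes. The comparison of CD38 KO and WT used R 4.3.3 and edgeR 4.0.16 (TMM, filterByExpr, robust quasi-likelihood F test, no covariate), and 20120 genes were tested. Fold changes are CD38 KO over WT, and a standard error is the size of the log2 fold change divided by the root of F. Positions, gene order and exon lengths came from GENCODE 29 through the Ensembl identifier (98.6% of tested genes matched), which may not be the annotation used for counting. Alternatives were RLE scaling, library size alone, no filter, 1 CPM in 3 libraries, DESeq2 1.42.0, limma-voom (limma 3.58.1), the replicate number as a block and each library left out in turn. Scaling from genes off chromosome 12 was added after seeing the data. The members, gene lists and naming rule (members, direct partners, up to 4 genes per list by adjusted p, neighbours of MAF, most alike profiles) were chosen with earlier results of these data known, and not every gene the rule takes is described. A gene taken off these lists is not reported here. The procedure was also run on simulated counts. Far fewer genes differed there than were called here, so that run does not cover this share of changed genes. Every pair of replicates differed by more than sampling noise (chi-square per degree of freedom at least 5.50). Intervals and floors cover counting error or replicate spread only.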

Additional observations from a re-analysis of the deposited data

How the results depend on the processing

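MAF, CCND2, ITGB7, NUAK1 and RND3 stayed lower and past the threshold in all 14 alternatives, with log2 fold changes of -0.95 to -0.85, -0.49 to -0.39, -0.45 to -0.34, -1.72 to -1.61 and -1.83 to -1.71. WWOX ranged from -0.58 to -0.43, also over the leave-one-out fits, and lost its call without WT replicate 1 (-0.43). DEPTOR passed the threshold with library size alone (-0.15) and ranged from -0.15 to -0.0440. The number of members called lower was 5 to 7. With no filter on low counts SMARCA1 could be fitted (log2 fold change -3.07 ± 1.335, SE; edgeR adjusted p = 0.0907), on few counts that lay mostly in WT replicate 3. Library size alone called 3632 genes higher and 5570 lower, against 4592 and 4342. The differences in share, CD38 KO minus WT, were 0.284 percentage points for CCND2 and -0.364 for ITGB7, and with counts divided by gene length 0.613 and -0.273. Leaving out 1 library gave 0.114 to 0.447 for CCND2 and -0.386 to -0.339 for ITGB7. Of 74 other named genes, 7 changed sign under an alternative, none of them past the threshold. With library size alone, log2 fold changes were -0.00601 for MTOR, -0.0569 for SMARCA5 and -0.0732 for AC009159.3. AC009159.3 was at -0.00417 with no filter, -0.0223 with limma-voom and -0.00215 with the replicate block, and its leave-one-out values ran from -0.27 to 0.27. Leave-one-out values also changed sign for AC079414.3 (-0.18 to 0.29), FGFR3 (-0.00942 to 1.06), MAFA (-0.25 to 0.76) and NUDT7 (-0.38 to 0.0743). Same-numbered libraries of the groups did not deviate together (correlations 0.0337, -0.00800 and -0.0207), and 2 of 6 libraries correlated best with their own number. The replicate block called 4554 genes higher and 4364 lower and 6 members lower, with a log2 fold change of -0.86 for MAF.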
